A study of Homo sapiens with 12 samples.

Results

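The RNA levels of 5 genes of the cadherin and catenin adhesion complex were followed through PRMT1 knockdown and progestin treatment of T47D cells. The genes are CDH1 (E-cadherin), CDH3 (P-cadherin), CTNNA1 (alpha-catenin), CTNNB1 (beta-catenin) and CTNND1 (p120-catenin). They were chosen by name, as the classical cadherins and catenins. The rule uses no measured value, though the group was picked with earlier results of these data known. They are 5 of the 55765 genes counted, and all 5 were among the 17727 genes that passed a filter on low counts. T47D is an established line of luminal breast cancer cells that carries the progesterone receptor, and the 12 libraries come from that single line. Cells received an siRNA against PRMT1, the main asymmetric arginine methyltransferase of human cells, or a control siRNA. They were then given 10 nM of the synthetic progestin R5020, or ethanol as its vehicle, for 6 h. The 4 groups are siPRMT1 with R5020, siPRMT1 with ethanol, siCT with R5020 and siCT with ethanol, where siCT is the control siRNA. Each group holds 3 biological replicates, so every value below is from 3 libraries a group unless libraries are said to be left out. The knockdown was transient and the measurement stops at RNA, so neither the proteins nor the junctions were measured.

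Classical cadherins are calcium-dependent adhesion receptors that span the membrane and bind the same cadherin on the next cell at the adherens junction. Beta-catenin binds the end of the cytoplasmic tail and hands it to alpha-catenin, which reaches the actin cytoskeleton, while p120-catenin binds the stretch next to the membrane and slows the uptake and breakdown of the cadherin. Beta-catenin not held by cadherins is marked for destruction by a complex around APC and axin unless Wnt signalling stops it, and it then acts in the nucleus with TCF and LEF factors. Luminal breast cells hold E-cadherin at their junctions, and P-cadherin is best known from the basal, myoepithelial layer of the breast and from basal-like tumours.

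The libraries held 26783525 to 34120937 counts each. PRMT1 read 6.88 to 8.38 CPM (counts scaled to the size of the library, after TMM adjustment) in the 6 siPRMT1 libraries, against 29.7 to 50.7 CPM in the 6 siCT libraries. This was 4.56-fold lower with siPRMT1 in ethanol and 6.07-fold lower in R5020 (edgeR's quasi-likelihood test, Benjamini-Hochberg adjusted p = 7.79e-06 and 2.96e-06). PGR, the progesterone receptor gene, read 265 to 282 CPM with R5020 and 1106 to 1146 CPM with ethanol in siPRMT1 cells, and 134 to 190 CPM with R5020 and 406 to 655 CPM with ethanol in siCT cells. All 9 luminal markers listed were over 1 CPM in every group, while the 8 basal markers summed to 3.21 to 5.57 CPM, with LGALS7 at 0 counts throughout. A pair of libraries stood apart. In siCT ethanol replicate 3 and siCT R5020 replicate 1 the 13 mitochondrial mRNAs took 56.6% and 49.6% of all counts, against 29.7% to 36.0% in the other 10 libraries. Results that rest on this pair are therefore given with it and without it. Without it 6 siPRMT1 and 4 siCT libraries remain, as each siCT group loses a library. In bulk RNA, fewer cells that express a gene and less RNA per cell cannot be told apart.

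In the GENCODE release 29 annotation of GRCh38, CDH3 lies at chr16:68636189-68722616 and CDH1 follows it on the same strand at chr16:68737225-68835548, with 14608 bases between them. CTNNA1 lies at chr5:138610967-138935034, CTNNB1 at chr3:41194741-41260096 and CTNND1 at chr11:57753243-57819546, all on the + strand. The deposited counts were made on hg19, so these positions give the genes' places and were not joined to any read. The readthrough gene TMX2-CTNND1, which shares the exons of CTNND1, had 0 counts in all 12 libraries. ULK4, which overlaps CTNNB1 on the opposite strand, had 45 to 119 counts a library against 1441 to 3214 for CTNNB1. LRRTM2, which lies within CTNNA1 on the opposite strand, had 4 to 21 counts against 2404 to 7309 for CTNNA1. The strand setting of the counting is not given in the sources used here, so reads of such partners cannot be told apart from those of the catenins.

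RefSeq promoter windows (GRCh38.p14, from 250 bases before to 50 bases after a start site) were on hand for CTNNA1 and CTNNB1. One window of each is shown to give the start regions of CTNNB1 and CTNNA1, the members with a window, with the GC box marked, a motif bound by SP1-type factors. CTNNA1 has 4 such windows in all, and the one shown is the most GC-rich. The CTNNB1 window spans chr3:41199255-41199554 on the + strand, with 74% G or C. The CTNNA1 window shown spans chr5:138753175-138753474 on the + strand, with 77.7% G or C. Capitals mark the letters GGGCGG or their reverse complement.
CTNNB1: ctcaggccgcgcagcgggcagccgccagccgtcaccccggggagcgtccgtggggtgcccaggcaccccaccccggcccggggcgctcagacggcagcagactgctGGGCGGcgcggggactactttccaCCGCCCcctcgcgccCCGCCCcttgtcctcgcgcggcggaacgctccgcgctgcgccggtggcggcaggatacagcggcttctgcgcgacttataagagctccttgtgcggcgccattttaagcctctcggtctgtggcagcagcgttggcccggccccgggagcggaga
CTNNA1: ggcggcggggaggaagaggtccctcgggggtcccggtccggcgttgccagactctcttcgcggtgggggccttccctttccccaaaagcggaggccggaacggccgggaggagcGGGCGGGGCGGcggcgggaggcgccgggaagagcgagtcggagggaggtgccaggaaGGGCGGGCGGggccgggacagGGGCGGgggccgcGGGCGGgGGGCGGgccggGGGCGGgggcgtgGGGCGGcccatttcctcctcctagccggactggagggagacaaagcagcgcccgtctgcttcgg
The CTNNB1 window holds 3 GC boxes and this CTNNA1 window holds 9, some of them overlapping one another. Of all 35116 promoter windows searched on both strands, 45% hold at least 1 GC box. The letters TGTTCT, a half-site of the progesterone receptor, occur 0 times in both windows and in 14.8% of all windows. The windows shown also hold 0 E-boxes, the CANNTG letters bound by the Snail, ZEB and Twist repressors of E-cadherin, against 68.7% of all windows with at least 1. The other CTNNA1 windows differ: 1 holds 4 GC boxes and 0 E-boxes, and the remaining 2, with 42.3% and 44.7% G or C, hold 0 GC boxes and 2 E-boxes each.

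Per kilobase of exon, CDH1 RNA was the most abundant of the 5 members and CTNND1 came next. Counted over all exon bases of a gene, CDH1 averaged 161 ± 8.06 CPM per kilobase in siPRMT1 R5020, 185 ± 7.18 in siPRMT1 ethanol, 151 ± 40.4 in siCT R5020 and 194 ± 97.5 in siCT ethanol cells (SD, n = 3 each). On the same scale CTNND1 averaged 66.2 ± 0.998 in siPRMT1 R5020, 45.5 ± 0.516 in siPRMT1 ethanol, 53.9 ± 2.23 in siCT R5020 and 42.9 ± 2.63 CPM per kilobase in siCT ethanol cells. CTNNA1 followed with means of 17.4 to 21.8 CPM per kilobase. In each group the libraries of CDH1 lay above those of CTNND1, and those of CTNND1 above those of CTNNA1. The lowest levels were those of CDH3, with means of 3.26 and 4.25 CPM per kilobase in siPRMT1 R5020 and siPRMT1 ethanol cells and 10.6 and 14.0 in siCT R5020 and siCT ethanol cells, and of CTNNB1, with means of 6.20 and 6.49 in siPRMT1 R5020 and siPRMT1 ethanol cells and 6.81 and 7.26 in siCT R5020 and siCT ethanol cells. CDH3 lay below CTNNB1 in all 6 siPRMT1 libraries. Among siCT libraries CDH3 lay above CTNNB1 on this scale, while per kilobase of the principal transcript their ranges overlapped, at 10.2 to 18.3 and 15.8 to 18.6 in R5020 and 10.2 to 28.0 and 16.6 to 19.7 in ethanol. CDH3 and CTNNA1 also overlapped in siCT ethanol cells per kilobase of all exons, at 8.06 to 22.1 and 14.9 to 21.1.

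**Figure D1:**
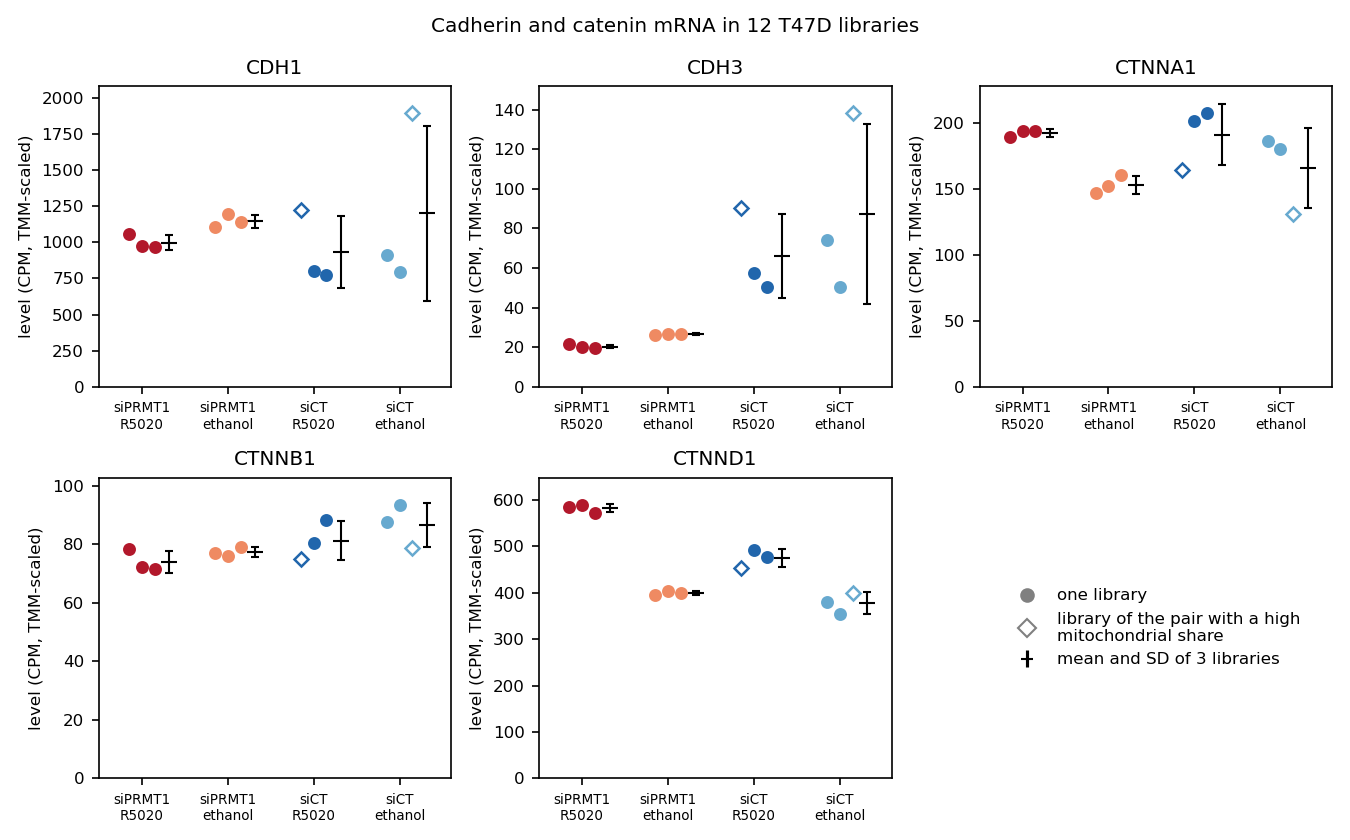
Level of each member in each of the 12 libraries, in CPM after TMM scaling on a linear axis from 0, with 1 panel a gene and the groups from siPRMT1 R5020 at the left to siCT ethanol at the right. Points are libraries, open diamonds are the pair with a high mitochondrial share, and bars are the mean with the SD of 3 libraries. The 6 siPRMT1 libraries of CDH3 sit between 19.6 and 26.9 CPM, below all 6 siCT libraries at 50.2 CPM or more, and CTNND1 is highest in siPRMT1 R5020 cells.

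The first question was what loss of PRMT1 did to the cadherins. CDH3 was the only member called by edgeR over the 12 libraries: its RNA fell more than 3-fold with siPRMT1, both in ethanol and in R5020. CDH3 read 25.9, 26.9 and 26.7 CPM in siPRMT1 ethanol cells, against 74.1, 50.2 and 138 CPM in siCT ethanol cells. In R5020 it read 21.4, 19.995 and 19.6 CPM in siPRMT1 cells, against 90.1, 57.5 and 50.4 CPM in siCT cells. In both media every siPRMT1 library lay below every siCT library, a lack of overlap found for 44.7% of all genes in ethanol and 51.5% in R5020. The deposited counts behind these values were 950 to 1011 and 549 to 663 in siPRMT1 ethanol and R5020 libraries, against 1704 to 2721 and 1616 to 2234 in siCT ethanol and R5020 libraries, so counting error was small beside the spread of the siCT groups.

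CDH3 fell 3.295-fold in ethanol (log2 fold change -1.72 ± 0.31 SE, 95% CI -2.38 to -1.06) and 3.24-fold in R5020 (-1.70 ± 0.31, 95% CI -2.36 to -1.04). The adjusted p was 0.00151 in ethanol and 0.00208 in R5020 in edgeR (quasi-likelihood test, Benjamini-Hochberg adjusted over the 17727 genes). Of the 5 members CDH3 alone was called, which is 1 of 5 in each medium. The background was high: 32.8% of all genes tested were called in ethanol and 25.7% in R5020, with 19.2% and 14.2% called lower. Both calls held in each of the 12 fits that left out 1 library, with log2 fold changes of -2.001 to -1.17 in ethanol and -1.86 to -1.41 in R5020. The ethanol value nearest to 0, -1.17, came without siCT ethanol replicate 3, the library with the highest CDH3. Without the pair of libraries that stand apart CDH3 was 2.33-fold lower in ethanol and 2.63-fold lower in R5020 (edgeR adjusted p = 4.59e-05 and 2.59e-05). Library totals in place of TMM moved the median of all genes by 0.18 in ethanol, and relative to that median CDH3 was at -1.65 with TMM and -1.50 with totals. Over all alternatives other than left-out libraries the adjusted p ranged from 9.79e-09 to 0.00978 in ethanol and from 2.17e-09 to 0.00463 in R5020.

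Of the 12 markers of mesenchymal cells and fibroblasts 7 were tested, and with siPRMT1 1 rose (SPARC) and 2 fell (FN1 and ACTA2) in each medium by edgeR. The summed level of the 12 genes on that list was 61.2 to 64.6 CPM in siPRMT1 R5020 and 68.5 to 69.1 CPM in siPRMT1 ethanol libraries, against 120 to 161 CPM in siCT R5020 and 132 to 218 CPM in siCT ethanol libraries. Without the pair that stands apart the ranges were 61.2 to 69.1 CPM in 6 siPRMT1 libraries and 120 to 151 CPM in 4 siCT libraries. COL1A1 (collagen I), FN1 (fibronectin) and ACTA2 (smooth muscle actin) made up most of the sum. COL1A1 overlapped between siPRMT1 and siCT libraries in both media and was not called, at 29.8 to 34.3 CPM in siPRMT1 R5020 and 33.5 to 35.6 CPM in siPRMT1 ethanol libraries, against 28.3 to 58.3 CPM in siCT R5020 and 32.5 to 78.9 CPM in siCT ethanol libraries. FN1 averaged 17.3 and 22.6 CPM in siPRMT1 R5020 and ethanol cells, against 47.6 and 63.0 CPM in siCT R5020 and ethanol cells. ACTA2 averaged 7.60 and 7.46 CPM in siPRMT1 R5020 and ethanol cells, against 42.3 and 47.9 CPM in siCT R5020 and ethanol cells. Part of the list was at or near 0, with totals over all 12 libraries of 1 count for CDH11, 3 for COL1A2, 2 for MMP2, 18 for PDGFRB and 15 for CDH2 (N-cadherin). The other genes of the list had more, with totals of 174 counts for SPARC, 452 for THY1, 539 for VIM and 781 for TAGLN. ACTA2 had 9904 counts, FN1 13553 and COL1A1 14189. Of the 9 luminal markers 4 rose and 1 fell with siPRMT1 in ethanol, and 4 rose and 3 fell in R5020, by edgeR. Their sum was 11156 to 12021 CPM in siPRMT1 R5020 and 14899 to 15419 CPM in siPRMT1 ethanol libraries, against 6575 to 7660 CPM in siCT R5020 and 7235 to 10306 CPM in siCT ethanol libraries. The part of either marker group in the fall of CDH3 was not tested.

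CDH1 RNA was not called in either siPRMT1 comparison, and its estimate hung on the pair of libraries that stand apart. It read 1103, 1192 and 1139 CPM in siPRMT1 ethanol cells, against 909, 796 and 1891 CPM in siCT ethanol cells. In R5020 it read 1055, 971 and 966 CPM in siPRMT1 cells, against 1220, 801 and 774 CPM in siCT cells. With TMM scaling the siPRMT1 libraries lay inside the range of the siCT libraries in both media. The highest siCT library was in each case the one of the pair, whose TMM factors were 0.655 in ethanol and 0.747 in R5020. With library totals in place of TMM, all siPRMT1 libraries lay above all siCT libraries in R5020, at 964 to 1001 against 841 to 911 CPM. In ethanol they overlapped with library totals, at 1224 to 1321 CPM in siPRMT1 against 911 to 1238 CPM in siCT cells. The log2 fold change was -0.07 ± 0.29 in ethanol (95% CI -0.70 to 0.57, adjusted p = 0.881) and 0.10 ± 0.29 in R5020 (95% CI -0.53 to 0.73, adjusted p = 0.827) by the edgeR quasi-likelihood test.

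Without the pair CDH1 was 1.35-fold higher with siPRMT1 in ethanol (log2 fold change 0.44 ± 0.08, adjusted p = 0.00113) and 1.28-fold higher in R5020 (0.35 ± 0.08, adjusted p = 0.00468), again with edgeR. The adjusted p over all alternatives other than left-out libraries ran from 0.00113 to 1 in ethanol and from 0.00468 to 0.839 in R5020. Leaving out siCT ethanol replicate 3 alone moved the ethanol value to 0.49 without a call, and leaving out siCT R5020 replicate 2 or 3 moved the R5020 value to -0.00 and -0.02. CDH1 and CDH3 thus had opposite signs in the 10 libraries, where 3 of 5 members were called in ethanol (CDH1, CDH3 and CTNNA1) and 3 of 5 in R5020 (CDH1, CDH3 and CTNND1). The background in those libraries was 44.5% of genes in ethanol and 38.9% in R5020.

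The 2 cadherins were also set against each other within each library, which removes the scaling of the library from the value. CDH3 made 2.03 to 2.06 counts per 100 CDH1 counts in siPRMT1 R5020 libraries (mean 2.04 ± 0.0168) and 2.26 to 2.35 in siPRMT1 ethanol libraries (2.32 ± 0.0518). In siCT cells it made 6.52 to 7.39 with R5020 (7.03 ± 0.457) and 6.31 to 8.15 with ethanol (7.26 ± 0.920, SD, n = 3 each). The siCT libraries that stand apart did not stand apart in this ratio. The log2 of the ratio was lower by 1.64 with siPRMT1 in ethanol and by 1.78 in R5020, with a 2-sided exact permutation p of 0.1 in both, which is the smallest p that 3 against 3 libraries allow. Without the pair the log2 differences were -1.63 and -1.75. A ratio shows that the 2 genes changed unequally, not which of them moved.

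**Figure D2:**
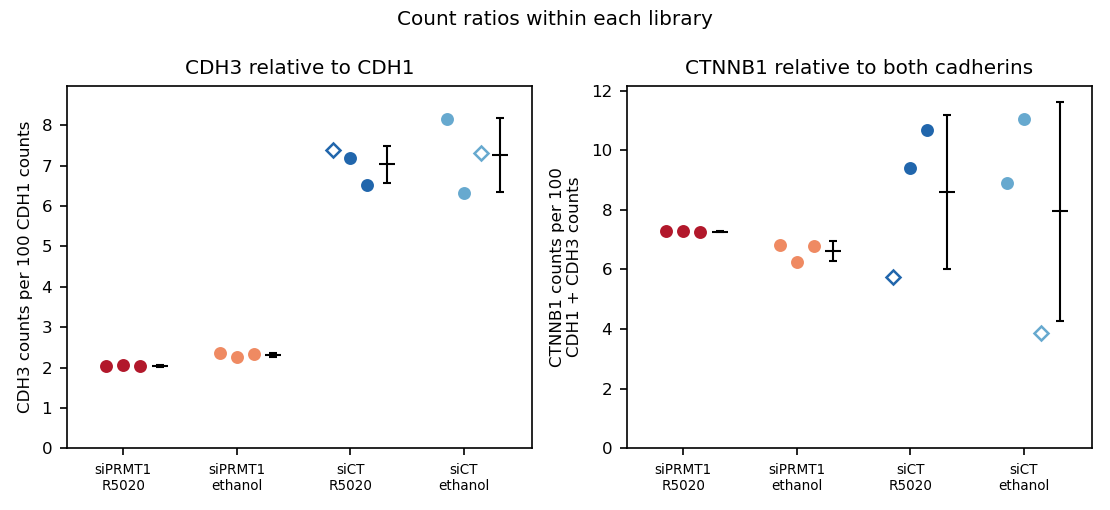
Ratios of counts within each library, with CDH3 per 100 CDH1 counts at the left and CTNNB1 per 100 counts of both cadherins at the right, on linear axes from 0. Points are libraries, open diamonds the pair with a high mitochondrial share, and bars the mean with the SD of 3 libraries. The 6 siPRMT1 libraries lie between 2.03 and 2.35 CDH3 counts and the 6 siCT libraries between 6.31 and 8.15, while the catenin ratio spreads widely in siCT cells.

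The catenins showed no call with siPRMT1 over the 12 libraries by edgeR with TMM scaling. On the same libraries DESeq2 called CTNND1 in R5020 (0.30), and limma with quality weights called CTNND1 (0.26) and CTNNB1 (-0.19) there. The background in that comparison was 9866 of the 17727 genes with limma, and 2541 higher and 2794 lower with DESeq2. CTNNB1 read 77.0, 76.0 and 79.1 CPM in siPRMT1 ethanol cells, against 87.6, 93.5 and 78.7 CPM in siCT ethanol cells. In R5020 it read 78.3, 72.1 and 71.4 CPM in siPRMT1 cells, against 75.0, 80.5 and 88.2 CPM in siCT cells. The groups overlapped in both media, and the log2 fold change was -0.16 ± 0.13 in ethanol (95% CI -0.44 to 0.11, adjusted p = 0.347) and -0.14 ± 0.13 in R5020 (95% CI -0.41 to 0.14, adjusted p = 0.456) by the edgeR quasi-likelihood test. The adjusted p of CTNNB1 in R5020 over the alternatives ran from 0.0330 to 0.823. CTNNB1 thus had the narrowest intervals of the members, and a fall of more than 0.44 on the log2 scale lay outside them.

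CTNNA1 read 147, 153 and 161 CPM in siPRMT1 ethanol cells, against 186, 181 and 131 CPM in siCT ethanol cells. In R5020 it read 189, 194 and 194 CPM in siPRMT1 cells, against 165, 201 and 208 CPM in siCT cells. The low siCT value in each medium belonged to the pair that stands apart, so CTNNA1 was lowest where CDH1 was highest. The log2 fold change was -0.11 ± 0.16 in ethanol and 0.01 ± 0.16 in R5020, with an edgeR adjusted p of 0.608 and 0.972. Without the pair CTNNA1 fell by 0.25 on the log2 scale in ethanol (edgeR adjusted p = 0.0143, with 0.0143 to 0.970 over the alternatives), and its R5020 value of -0.08 was not called.

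CTNND1 read 396, 405 and 400 CPM in siPRMT1 ethanol cells, against 380, 354 and 400 CPM in siCT ethanol cells, and these groups overlapped. In R5020 every siPRMT1 library was higher, with 585, 590 and 572 CPM in siPRMT1 cells, against 454, 493 and 477 CPM in siCT cells. The log2 fold change of 0.29 ± 0.14 in R5020 was not called (95% CI -0.01 to 0.60, edgeR adjusted p = 0.134), nor was that of 0.08 ± 0.14 in ethanol (adjusted p = 0.671). Without the pair the R5020 value of 0.28 was called (edgeR adjusted p = 0.00706), and the adjusted p over the alternatives ran from 0.00318 to 0.402.

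Gamma-catenin (JUP), the close relative of beta-catenin found in both adherens junctions and desmosomes, averaged 424 ± 56.6 CPM in siPRMT1 R5020, 454 ± 20.6 in siPRMT1 ethanol, 535 ± 116 in siCT R5020 and 563 ± 220 in siCT ethanol cells. It was not called with edgeR in any of the 4 comparisons (adjusted p = 0.343 to 0.910). With limma and quality weights it fell by 0.52 on the log2 scale with siPRMT1 in R5020 (adjusted p = 0.000489), where the other alternatives gave 0.0614 to 0.651. That limma fit called 9866 of the 17727 genes in this comparison.

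The second question was what the progestin did. In siPRMT1 cells R5020 raised CTNND1, and the other 4 members were not called by edgeR over the 12 libraries, although CDH1, CDH3 and CTNNA1 were each called in 3 of the 7 alternatives. Those 7 alternatives called between 2064 and 8179 of all genes. CTNND1 read 585, 590 and 572 CPM with R5020, against 396, 405 and 400 CPM with ethanol in siPRMT1 cells, a rise of 1.46-fold (log2 fold change 0.54 ± 0.14, 95% CI 0.24 to 0.84, edgeR adjusted p = 0.0172). It was 1 of 5 members called, against 15.4% of all genes. In siCT cells CTNND1 read 454, 493 and 477 CPM with R5020, against 380, 354 and 400 CPM with ethanol, and every R5020 library again lay above every ethanol library. The log2 fold change of 0.33 ± 0.14 in siCT cells was not called (95% CI 0.03 to 0.63, edgeR adjusted p = 0.156). In that comparison 0 of 5 members were called with edgeR against a background of 13% of genes, with DESeq2 calling CTNND1 and limma 0 of 5. CTNND1 alone had an unadjusted p under 0.05 in edgeR. Groups did not overlap for 20.8% of all genes with R5020 in siCT cells and for 53.1% in siPRMT1 cells.

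The call of CTNND1 in siPRMT1 cells was close to the threshold. It was lost when any 1 of the 6 siPRMT1 libraries was left out, with adjusted p of 0.0611 to 0.0801 and log2 fold changes of 0.54 to 0.56, and it held when any 1 of the 6 siCT libraries was left out. It was also lost with library totals in place of TMM scaling (log2 fold change 0.37, edgeR adjusted p = 0.385) and with no filter on low counts (0.54, adjusted p = 0.117), and the adjusted p over the alternatives ran from 5.05e-08 to 0.385. Library totals moved the median of all genes by -0.17 in that comparison. Relative to that median CTNND1 was higher by 0.54 under both scalings. Without the pair CTNND1 rose by 0.53 on the log2 scale in siPRMT1 cells and by 0.40 in siCT cells (edgeR adjusted p = 2.74e-05 and 0.00212). In siCT cells leaving out siCT ethanol replicate 3 alone gave 0.40 with an adjusted p of 0.0418. DESeq2 on all 12 libraries also called the siCT value, at 0.32 (adjusted p = 0.00197), while the alternatives ran from 0.00197 to 0.618.

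With TMM scaling the R5020 and ethanol libraries of siPRMT1 cells did not overlap for 3 of the other members, as was found for 53.1% of all genes. The differences were small and not called. CTNNA1 read 189, 194 and 194 CPM with R5020, against 147, 153 and 161 CPM with ethanol (log2 fold change 0.33 ± 0.16, edgeR adjusted p = 0.232). CDH1 read 1055, 971 and 966 CPM with R5020, against 1103, 1192 and 1139 CPM with ethanol (-0.20 ± 0.29, adjusted p = 0.765). CDH3 read 21.4, 19.995 and 19.6 CPM with R5020, against 25.9, 26.9 and 26.7 CPM with ethanol (-0.38 ± 0.30, adjusted p = 0.507). So with TMM scaling the alpha and p120 catenins were higher and both cadherins lower in all 3 R5020 libraries. CTNNB1 overlapped, at 78.3, 72.1 and 71.4 CPM with R5020 against 77.0, 76.0 and 79.1 CPM with ethanol (-0.07 ± 0.13, edgeR adjusted p = 0.833). With library totals in place of TMM, CTNNA1 overlapped, at 180 to 199 CPM with R5020 against 163 to 182 CPM with ethanol. CTNNB1 then lay lower in all 3 R5020 libraries, at 71.2 to 74.3 against 84.3 to 89.4 CPM. CDH1, CDH3 and CTNND1 did not overlap under either scaling.

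The spread behind those tests was shared by all 4 groups, and it was not the same in them. The common biological coefficient of variation was 0.0753 in siPRMT1 R5020 and 0.0464 in siPRMT1 ethanol libraries, against 0.212 in siCT R5020 and 0.325 in siCT ethanol libraries. Without the pair 4 of 5 members were called with R5020 in siPRMT1 cells, against 29.1% of genes: CTNND1, CTNNA1 (0.32, edgeR adjusted p = 0.00227), CDH3 (-0.39, 0.0371) and CDH1 (-0.21, 0.0451). The alternatives for these 3 ran from 0.000123 to 0.857 for CTNNA1, from 0.000131 to 0.531 for CDH3 and from 0.00710 to 0.788 for CDH1.

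In siCT cells the R5020 and ethanol libraries of both cadherins overlapped with TMM scaling. With library totals CDH1 lay lower in all 3 R5020 libraries, at 841 to 911.0 against 911.5 to 1238 CPM, while CDH3 overlapped. The values that follow are with TMM scaling. CDH1 read 1220, 801 and 774 CPM with R5020, against 909, 796 and 1891 CPM with ethanol (log2 fold change -0.36 ± 0.29, edgeR adjusted p = 0.514). CDH3 read 90.1, 57.5 and 50.4 CPM with R5020, against 74.1, 50.2 and 138 CPM with ethanol (-0.40 ± 0.30, adjusted p = 0.463). Both estimates depended on single libraries. Without siCT ethanol replicate 3, the highest library of each, they were 0.16 for CDH1 and 0.12 for CDH3. Without siCT R5020 replicate 1 they were -0.60 for CDH1 and -0.69 for CDH3. Without the pair, which leaves out both libraries, they were -0.12 and -0.21, and neither was called. CTNNA1 (0.20 ± 0.16, adjusted p = 0.506) and CTNNB1 (-0.09 ± 0.13, adjusted p = 0.739) overlapped between the groups as well. Without the pair CTNND1 was the 1 of 5 members called, against 19.9% of genes.

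Within libraries, CDH3 per 100 CDH1 counts was lower by 0.18 on the log2 scale with R5020 in siPRMT1 cells (2-sided exact permutation p = 0.1, the smallest possible), and by 0.04 in siCT cells (p = 0.9). CTNNB1 made 7.27 ± 0.0196 counts per 100 counts of both cadherins in siPRMT1 R5020, 6.61 ± 0.326 in siPRMT1 ethanol, 8.60 ± 2.57 in siCT R5020 and 7.94 ± 3.68 in siCT ethanol libraries. The catenin ratio thus varied little between siPRMT1 libraries, and in siCT cells it ran from 3.88 to 11.05 in ethanol and from 5.73 to 10.7 in R5020. The log2 differences were 0.14 with R5020 in siPRMT1 cells (exact permutation p = 0.1), 0.20 with R5020 in siCT cells (p = 0.7), -0.13 with siPRMT1 in ethanol (p = 0.8) and -0.19 with siPRMT1 in R5020 (p = 0.4). Without the pair the values were 0.01 with R5020 in siCT cells, -0.59 with siPRMT1 in ethanol and -0.46 with siPRMT1 in R5020, so the first lost its size and the others grew.

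Whether PRMT1 loss altered the response to R5020 was tested by the interaction, which subtracts the hormone effect in siCT cells from the one in siPRMT1 cells. The log2 estimates were 0.16 for CDH1, 0.02 for CDH3, 0.12 for CTNNA1, 0.03 for CTNNB1 and 0.21 for CTNND1. None of the 5 was called with edgeR, at an unadjusted p of 0.301 to 0.958, with 0 of 5 at an unadjusted p under 0.05 and 0 of 5 called by DESeq2 or limma. Of all genes 0.079% were called in the interaction, which is 14 genes with edgeR, 88 with DESeq2 and 65 with limma. Without the pair 0.779% of genes and 0 of 5 members were called with edgeR. The 95% CI was -0.73 to 1.06 for CDH1, -0.89 to 0.94 for CDH3 and -0.21 to 0.64 for CTNND1, so differences of that size in the hormone effect could not be told from 0 at this spread.

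**Figure D3:**
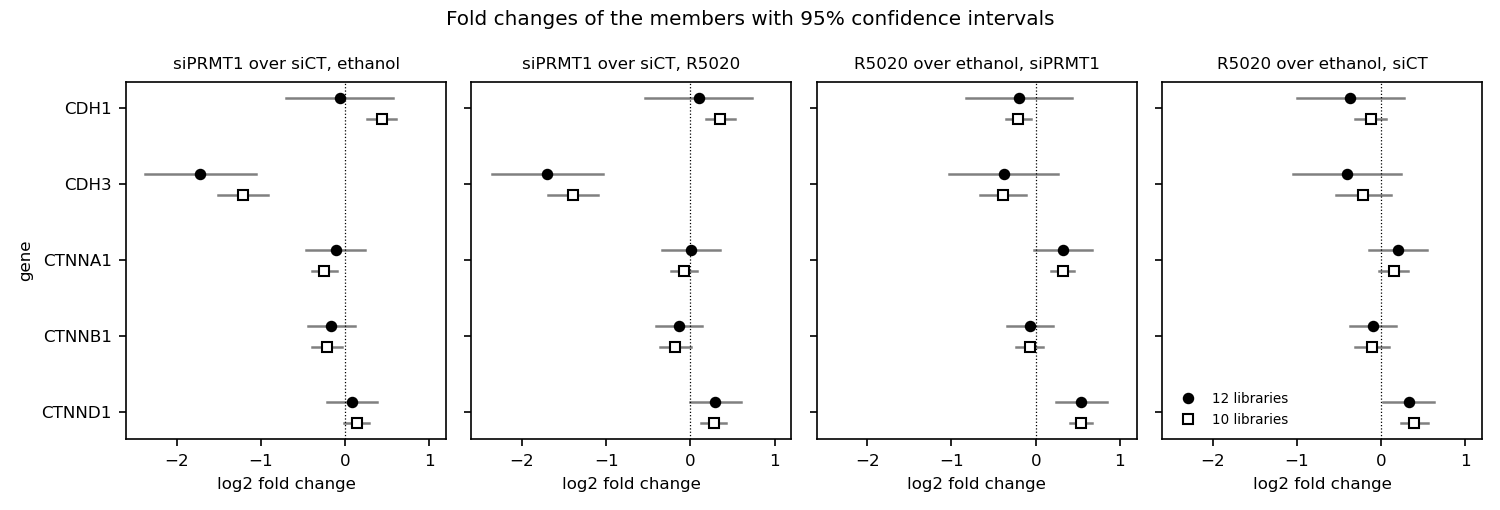
Log2 fold change of each member with its 95% confidence interval, in 4 panels for siPRMT1 over siCT in ethanol and in R5020 and for R5020 over ethanol in siPRMT1 and in siCT cells. Filled circles are fits on all 12 libraries, open squares fits on the 10 libraries without the pair of high mitochondrial share, and the line marks 0. CDH3 is near -1.7 with siPRMT1 over all libraries and between -1.40 and -1.22 without the pair, CDH1 changes side in ethanol, and the intervals are narrower without the pair.

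The authors' deposited table of their own comparisons lists CDH3 at a log2 fold change of -1.50 with siPRMT1 in ethanol and -1.58 in R5020 (adjusted p = 1.24e-05 and 2.9e-13 there). For R5020 in siPRMT1 cells the authors' deposited table lists CTNND1 at 0.54, CTNNA1 at 0.32, CDH3 at -0.38 and CDH1 at -0.20, all with an adjusted p of 0.00306 or less. It lists CTNND1 at 0.31 with siPRMT1 in R5020 (adjusted p = 0.0348). In the authors' deposited table no member has an adjusted p under 0.05 for R5020 in siCT cells. The background there differs widely between comparisons. For R5020 that table has 6664 genes with an adjusted p under 0.05 in siPRMT1 cells and 1283 in siCT cells. For siPRMT1 it has 4081 such genes in ethanol and 5923 in R5020.

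CDH1 and CDH3 are neighbours on chromosome 16, so the genes next to them were read as well. SMPD3, a sphingomyelinase, and ZFP90, a zinc finger protein, lie on the CDH3 side, and TANGO6 and HAS3, a hyaluronan synthase, on the CDH1 side. None of these 4 was called with siPRMT1 by edgeR in either medium (adjusted p = 0.119 to 0.966). ZFP90, the closest in level to CDH3, averaged 40.6 ± 0.489 CPM in siPRMT1 ethanol and 38.5 ± 4.31 CPM in siCT ethanol cells. HAS3 fell 3.27-fold with R5020 in siPRMT1 cells (edgeR adjusted p = 0.00301), where it averaged 0.356 CPM with R5020 and 1.17 CPM with ethanol. SMPD3 fell 1.92-fold with R5020 in siCT cells (edgeR adjusted p = 0.0411), where it averaged 1.08 CPM with R5020 and 2.09 CPM with ethanol. The SMPD3 call was lost without the pair (edgeR adjusted p = 0.0552) and in several other alternatives.

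The genes whose log2 levels followed each member most closely over the 12 libraries were listed among the 10667 genes averaging 5 CPM or more. These correlations share the libraries, their depth and the pair that stands apart, and are given as a description. For CDH3 they were CLSTN1 (r = 0.995), DAG1, the dystroglycan gene (0.995), and JUN (0.994), with 0.989, 0.995 and 0.989 over the 10 other libraries. DAG1 averaged 312 ± 14.6 and 380 ± 5.93 CPM in siPRMT1 R5020 and ethanol cells, against 863 ± 274 and 1026 ± 548 CPM in siCT R5020 and ethanol cells. For CDH1 they were L1CAM, an adhesion molecule of the immunoglobulin family (r = 0.988, or 0.970 over 10 libraries), CHD6 (0.973) and LTBP1 (0.963). For CTNND1 they were CAMSAP1, which caps the minus ends of microtubules (r = 0.986, or 0.997 over 10 libraries), PPFIA1, a liprin (0.980), and FAM127A (0.980). CAMSAP1 was far more responsive than CTNND1: it averaged 141 ± 9.04 CPM with R5020 and 41.2 ± 1.89 CPM with ethanol in siPRMT1 cells, and 72.7 ± 8.10 CPM with R5020 and 30.7 ± 3.67 CPM with ethanol in siCT cells. For CTNNA1 the closest was KCTD5 (0.987) and for CTNNB1 it was BTG1 (0.952).

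Other genes of the pathway were read from 8 lists, and their counts of calls stand beside the median over all genes, which was -0.00 for R5020 in siPRMT1 cells, -0.04 for R5020 in siCT cells, -0.07 for siPRMT1 in ethanol and -0.03 for siPRMT1 in R5020. Among all genes 9.3% rose and 6.08% fell after R5020 in siPRMT1 cells, 7.59% rose and 5.43% fell after R5020 in siCT cells, 13.6% rose and 19.2% fell with siPRMT1 in ethanol, and 11.5% rose and 14.2% fell with siPRMT1 in R5020. All calls are those of edgeR, adjusted over all genes, and where a count was 0 the counts from DESeq2 and from limma with quality weights follow it. Genes named in this account are the called members of each list with the smallest adjusted p, with 83 such calls, of which 60 held in each of the 12 fits that left out 1 library. Unless a loss is stated, a named call held in those 12 fits and under the other alternatives.

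Among 24 relatives of the members (other classical cadherins, alpha-catenins and p120 family members) 11 were abundant enough to test. N-cadherin (CDH2) had 15 counts over all 12 libraries, CDH11 had 1, and CDH6, CDH9 and CDH20 had 0. With siPRMT1 0 relatives rose and 2 fell in ethanol (1 higher at an unadjusted p under 0.05, 1 with DESeq2 and 0 with limma), with a list median of -0.31, and 1 rose and 2 fell in R5020, with a median of -0.35. CDH19 fell in both media (log2 fold change -1.35 and -1.15, adjusted p = 0.00187 and 0.00678). CDH10 read 5.76, 5.08 and 4.81 CPM in siPRMT1 ethanol cells, against 9.89, 13.1 and 30.0 CPM in siCT ethanol cells. It fell by 1.75 on the log2 scale, or by 1.08 without siCT ethanol replicate 3 (adjusted p = 0.00334 and 0.00466). With R5020 0 relatives rose and 2 fell in siPRMT1 cells (0 higher at an unadjusted p under 0.05, 0 with DESeq2 and 3 with limma), and 0 rose and 2 fell in siCT cells (1, 1 and 0). CDH10 fell by 1.84 and CDH7 by 1.51 with R5020 in siPRMT1 cells (adjusted p = 0.00524 and 0.00331). In siCT cells CDH10 fell by 2.09 (adjusted p = 0.00149), or by 1.45 without siCT ethanol replicate 3. Without the pair R5020 gave 0 higher and 4 lower relatives in siPRMT1 cells and 0 and 5 in siCT cells, and library totals in place of TMM gave 0 and 3 in siPRMT1 cells and 0 and 2 in siCT cells.

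Of 26 partners of the catenins at the junction, all tested, 7 rose and 0 fell after R5020 in siPRMT1 cells (0 lower at an unadjusted p under 0.05, 0 with DESeq2 and 3 with limma), with a median of 0.10. In siCT cells 6 rose and 0 fell (0, 0 and 0), with a median of 0.08. LMO7, a LIM-domain protein that binds afadin and alpha-actinin, moved most. It read 81.5, 88.3 and 92.2 CPM with R5020, against 15.0, 14.7 and 13.2 CPM with ethanol in siPRMT1 cells, a rise of 6.11-fold (adjusted p = 1.69e-07). In siCT cells it read 125, 106 and 102 CPM with R5020, against 29.2, 25.6 and 35.6 CPM with ethanol, a rise of 3.68-fold (adjusted p = 2.58e-06). The groups were far apart in both. VCL (vinculin), which alpha-catenin recruits under tension, rose 3.61-fold with R5020 in siPRMT1 cells (adjusted p = 0.00105), reading 428, 460 and 445 CPM with R5020 against 120, 123 and 126 CPM with ethanol. Library totals gave 4 higher and 0 lower in siPRMT1 cells, with the median at -0.07, and 5 and 0 in siCT cells, while the 10 libraries gave 9 and 1 in siPRMT1 cells and 9 and 0 in siCT cells.

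With siPRMT1 in ethanol 6 of these 26 partners rose and 7 fell (median -0.06), and in R5020 4 rose and 1 fell (median 0.05). Library totals gave 3 higher and 4 lower in ethanol, with the median at 0.21, and 1 and 1 in R5020, and without the pair the counts were 10 and 7 in ethanol, with the median at 0.11, and 9 and 4 in R5020. FMN1, a formin known in mouse to bind alpha-catenin, read 99.5, 106 and 109 CPM in siPRMT1 ethanol cells, against 50.0, 52.7 and 46.4 CPM in siCT ethanol cells, and rose 2.11-fold (adjusted p = 0.000119). LMO7 fell 2.11-fold and the nectin gene PVRL3 fell 2.93-fold there (adjusted p = 0.00036 and 0.00184). In R5020 the named calls were FMN1 (0.64), DLG1 (0.67) and the GTPase gene RAC1 (0.86 on the log2 scale), all higher, and all of these calls were lost with library totals in place of TMM.

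Of 23 genes of cadherin turnover (proteases, kinases, phosphatases, endocytic factors), 19 were tested. With siPRMT1 4 rose and 7 fell in ethanol (median -0.49), and 2 rose and 2 fell in R5020 (median -0.19). Library totals gave 0 higher and 2 lower in ethanol (median -0.25) and 0 and 3 in R5020, and without the pair the counts were 4 and 9 in ethanol (median -0.29) and 3 and 4 in R5020. PTPRF, the receptor phosphatase LAR that binds the cadherin complex, fell by 1.12 on the log2 scale in ethanol, or by 0.62 without siCT ethanol replicate 3 (adjusted p = 0.0107 and 0.0379). In this library PTPRF read 295 CPM, above the 122 to 164 CPM of the other siCT ethanol libraries. With R5020 4 rose and 1 fell in siPRMT1 cells (median 0.04), and 2 rose and 1 fell in siCT cells (median -0.02). With R5020 library totals gave 0 and 1 in siPRMT1 cells and 0 and 0 in siCT cells, and the 10 libraries gave 7 and 2 in siPRMT1 cells and 3 and 1 in siCT cells. CBLL1, the ubiquitin ligase Hakai that marks E-cadherin for uptake, rose by 0.99 in siPRMT1 cells (adjusted p = 0.00113), a call that library totals in place of TMM removed.

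Of 20 genes of the destruction complex and the Wnt receptors, 19 were tested, and AXIN2 was below the filter with 65 counts over all libraries. With siPRMT1 0 rose and 3 fell in ethanol (1 higher at an unadjusted p under 0.05, 0 with DESeq2 and 2 with limma), with a median of -0.21. In R5020 0 rose and 4 fell (2, 1 and 5), with a median of 0.01. CSNK1E, a casein kinase of the pathway, read 25.0, 28.2 and 26.5 CPM in siPRMT1 ethanol cells, against 53.0, 37.7 and 55.8 CPM in siCT ethanol cells, and fell by 0.88 on the log2 scale (adjusted p = 0.00195). The Wnt coreceptor gene LRP6 fell by 1.19, or by 0.73 without siCT ethanol replicate 3 (adjusted p = 0.00541 and 0.0148). With R5020 1 rose and 0 fell in siPRMT1 cells (1 lower at an unadjusted p under 0.05, 1 with DESeq2 and 3 with limma), and 1 rose and 0 fell in siCT cells (2, 2 and 0). Without the pair R5020 gave 5 higher and 2 lower in siPRMT1 cells and 1 and 2 in siCT cells, and siPRMT1 gave 2 and 5 in ethanol and 4 and 5 in R5020. With library totals R5020 gave 0 calls in this list in siPRMT1 and in siCT cells, and siPRMT1 gave 0 higher and 3 lower in ethanol and in R5020.

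Among 18 nuclear partners of beta-catenin, 3 rose and 2 fell after R5020 in siPRMT1 cells (median 0.09), and 2 rose and 1 fell in siCT cells (median -0.06). LEF1 and TCF7L2, both of the TCF and LEF family that beta-catenin binds on DNA, moved in opposite directions. LEF1 read 33.5, 36.4 and 33.4 CPM with R5020, against 7.23, 7.26 and 7.86 CPM with ethanol in siPRMT1 cells, and 28.9, 30.0 and 31.5 CPM with R5020, against 2.51, 3.39 and 3.28 CPM with ethanol in siCT cells. It rose 4.62-fold in siPRMT1 cells and 9.90-fold in siCT cells (adjusted p = 2.42e-07 and 2.48e-08), and its interaction of -1.10 was not called by edgeR (adjusted p = 0.0875). DESeq2 (-1.13, adjusted p = 2.92e-05), limma with quality weights (-1.21, 0.0396) and edgeR without the pair (-1.17, 0.0126) did call the interaction of LEF1, as did edgeR without siCT ethanol replicate 2 (-1.19, 0.0483) or 3 (-1.21, 0.024), and over all alternatives the adjusted p reached 0.619. TCF7L2 fell 2.10-fold in siPRMT1 cells and 1.75-fold in siCT cells (adjusted p = 2.51e-05 and 0.000312). With siPRMT1 4 partners rose and 0 fell in ethanol (2 lower at an unadjusted p under 0.05, 0 with DESeq2 and 0 with limma), LEF1 by 2.45-fold (adjusted p = 7.84e-05). In R5020 1 rose and 0 fell (1, 1 and 4), which was TLE3, a corepressor of the TCF factors, a call that library totals in place of TMM removed. For this list library totals gave 1 higher and 1 lower with R5020 in siPRMT1 and in siCT cells, and 2 and 0 with siPRMT1 in ethanol, where the median was 0.09. Without the pair the counts were 5 and 4 with R5020 in siPRMT1 cells, 4 and 2 with siPRMT1 in ethanol and 3 and 1 with siPRMT1 in R5020.

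Of 19 genes known as Wnt targets in other cells, 14 were tested. With R5020 4 rose and 1 fell in siPRMT1 cells (median 0.12), and 5 rose and 1 fell in siCT cells (median 0.20). CCND1 (cyclin D1) rose 3.01-fold in both siPRMT1 and siCT cells (adjusted p = 1.59e-05 and 2.04e-05). RNF43, a ubiquitin ligase that removes Frizzled receptors, read 8.27, 7.79 and 7.81 CPM with R5020, against 30.0, 31.7 and 32.4 CPM with ethanol in siPRMT1 cells. It read 3.75, 3.28 and 3.34 CPM with R5020, against 8.01, 8.99 and 12.02 CPM with ethanol in siCT cells. RNF43 thus fell with R5020 (3.94-fold in siPRMT1 and 2.79-fold in siCT cells, adjusted p = 1.67e-06 and 3.48e-05) and rose with siPRMT1 (3.26-fold in ethanol and 2.305-fold in R5020, adjusted p = 1.93e-05 and 0.000354). With siPRMT1 5 targets rose and 3 fell in ethanol (median -0.09), and 3 rose and 1 fell in R5020 (median -0.14). Library totals gave 4 higher and 2 lower in ethanol, with the median at 0.11, and 2 and 1 in R5020, and with R5020 in siPRMT1 cells they left the count at 4 and 1 with a median of -0.05. CD44 fell by 1.48 on the log2 scale with siPRMT1 in ethanol, or by 0.95 without siCT ethanol replicate 3 (adjusted p = 0.00266 and 0.00355).

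Of 18 repressors of CDH1, 13 were tested. ZEB1, ZEB2, SNAI2 and TWIST2 were nearly absent, with totals over 12 libraries of 6 counts for ZEB1, 5 for ZEB2, 9 for SNAI2 and 0 for TWIST2. SNAI1 (Snail) was expressed and rose with R5020. It read 6.04, 5.06 and 5.16 CPM with R5020, against 1.31, 1.97 and 1.71 CPM with ethanol in siPRMT1 cells (3.25-fold, adjusted p = 0.000648), and 2.66, 4.99 and 4.03 CPM with R5020, against 1.53, 0.796 and 1.48 CPM with ethanol in siCT cells (3.12-fold, adjusted p = 0.00149). CDH1 was not called in the same comparisons over the 12 libraries by edgeR. Without the pair CDH1 was lower with R5020 in siPRMT1 cells (-0.21, adjusted p = 0.0451, with 0.00710 to 0.788 over the alternatives). In siCT cells without the pair it was at -0.12 and not called (edgeR adjusted p = 0.379). A link between SNAI1 and CDH1 was not tested. The list counts were 1 higher and 2 lower with R5020 in both siPRMT1 and siCT cells (medians -0.05 and 0.18). The 2 lower genes were TCF4 and TWIST1, with group means of at most 1.22 and 0.963 CPM. TCF4 fell by 2.09 on the log2 scale in siPRMT1 cells and by 2.90 in siCT cells (adjusted p = 0.00312 and 8.32e-05). TWIST1 fell by 1.62 and 2.48 there (adjusted p = 0.0226 and 0.00326). Its call in siPRMT1 cells was lost when some single siPRMT1 libraries were left out. With siPRMT1 1 rose and 3 fell in ethanol and 1 rose and 1 fell in R5020 (medians 0.05 and -0.06). Library totals gave 1 and 1 in ethanol and 0 and 0 in R5020, and without the pair the counts were 2 and 4 in ethanol, with the median at -0.03, and 1 and 3 in R5020. HDAC2, a histone deacetylase that Snail recruits, rose by 0.98 with siPRMT1 in ethanol (adjusted p = 0.00334).

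All 17 genes on the list of epithelial transcription factors that act on E-cadherin or its neighbours were tested. With R5020 4 rose and 10 fell in siPRMT1 cells (median -0.61), and 4 rose and 4 fell in siCT cells (median -0.26). KLF4 rose 4.16-fold and GRHL2, known in mouse to bind an intron of the E-cadherin gene, rose 2.89-fold in siPRMT1 cells, and they rose 2.99-fold and 3.17-fold in siCT cells (adjusted p = 1.46e-07, 6.55e-06, 1.34e-06 and 3.9e-06). GRHL2 read 195, 180 and 186 CPM with R5020, against 62.7, 71.3 and 60.6 CPM with ethanol in siPRMT1 cells. Its relative GRHL3 fell 3.68-fold in siPRMT1 and 3.36-fold in siCT cells (adjusted p = 4.74e-06 and 8.03e-06). With siPRMT1 5 rose and 0 fell in ethanol (1 lower at an unadjusted p under 0.05, 0 with DESeq2 and 0 with limma), with a median of 0.09, TFAP2C by 1.89-fold and ELF5 by 2.01-fold (adjusted p = 0.000331 and 0.000814). In R5020 3 rose and 4 fell (median -0.27), and library totals gave 0 and 0 there and 2 higher and 0 lower in ethanol. Without the pair 6 rose and 2 fell with siPRMT1 in ethanol and 5 rose and 6 fell in R5020, while R5020 gave 4 and 11 in siPRMT1 cells and 4 and 8 in siCT cells. In R5020 the named calls of ELF5, KLF4 and TFAP2A were lost with library totals in place of TMM. The interaction called 0 genes of these 8 lists with edgeR, with 0 to 6 genes a list at an unadjusted p under 0.05, 0 to 2 called by DESeq2 and 0 to 1 by limma, and without the pair 5 of the lists had between 1 and 3 calls.

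**Figure D4:**
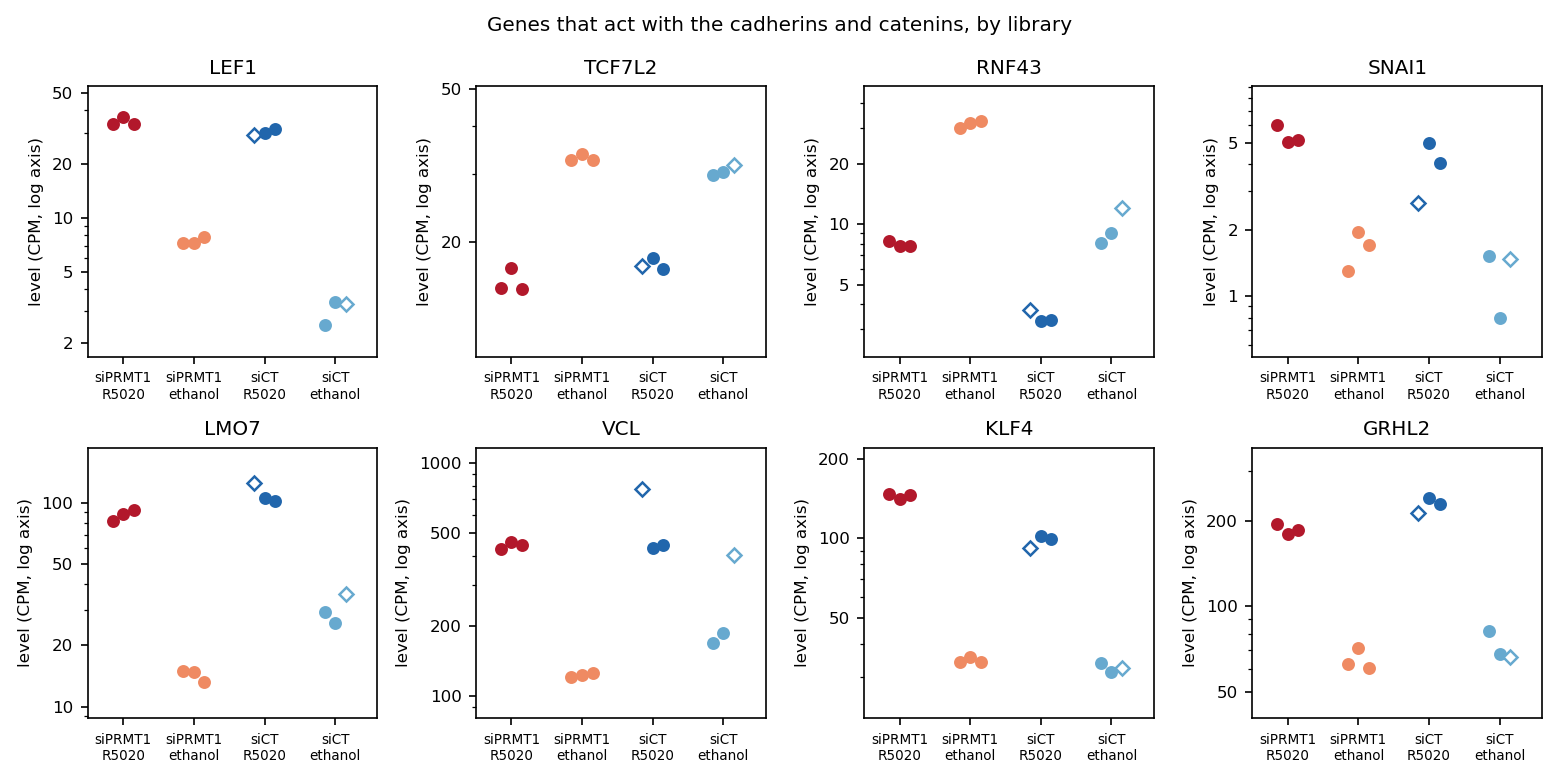
Levels of 8 genes in each of the 12 libraries, in CPM after TMM scaling on a log axis. Each gene has 1 panel, with the groups from siPRMT1 R5020 at the left to siCT ethanol at the right. The genes come from the lists of junction partners, nuclear partners of beta-catenin, Wnt targets, CDH1 repressors and epithelial transcription factors. Points are libraries and open diamonds the pair with a high mitochondrial share. LEF1, SNAI1, LMO7, KLF4 and GRHL2 lie higher with R5020 in siPRMT1 and siCT cells, TCF7L2 and RNF43 lie lower, and RNF43 is highest in siPRMT1 ethanol cells.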

How the data were processed

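RNA from 12 T47D cultures (4 groups of 3 biological replicates, mRNA libraries) was sequenced, and the deposited tables hold raw read counts per gene symbol for each library. The submitters' processing notes name Bowtie2 2.3.2.2, HTSeq 0.9.1, DESeq2 and the hg19 build, with no role or order. For the DESeq2 version, the annotation and the strand setting, nothing was given in the sources used here. The authors' deposited comparison tables give log2 fold changes and p-values per gene.

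Counts were tested with the quasi-likelihood test of edgeR 4.0.16 in R 4.3.3, on all 12 libraries with 1 mean per group, after filterByExpr (17727 of 55765 genes kept) and TMM scaling. P-values were adjusted by Benjamini-Hochberg across the 17727 genes, with 0.05 as the threshold for a call. P-values of the ratios are from exact 2-sided permutation tests. The code was tested on simulated counts. DESeq2 1.42.0, limma 3.58.1 with quality weights, library totals without TMM, no filter, a replicate block, fits on the compared groups alone, the 10 libraries without the pair that stands apart, and 12 fits leaving out 1 library were the alternatives.

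Replicates of a group differed beyond sampling noise (chi-square per degree of freedom of 3.33 or more for every pair). Same-numbered libraries of different groups did not deviate together (r = -0.67 to 0.29, 3 of 18 over 0.1), so the replicate number was not used to pair them. The genes named are the 5 members, PRMT1 and PGR, up to 3 called genes with the smallest adjusted p for each list and comparison, the 3 genes most correlated with each member, and chromosomal neighbours. One gene that this rule names is not reported here. The members and lists were chosen with earlier results of these data known. Counting error is small at these depths, and intervals describe the spread between libraries.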

Additional observations from a re-analysis of the deposited data

How the results depend on the processing

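The fall of CDH3 with siPRMT1 was called in both media under all 7 other settings and in all 12 fits that left out 1 library, at -2.001 to -1.17 in ethanol and -1.86 to -1.41 in R5020. The other members' calls depended on the setting, and causes beyond the values given were not tested. With library totals in place of TMM, CTNND1 with R5020 in siPRMT1 cells was 0.37 and not called, and with siPRMT1 in ethanol CDH1 was 0.26, CTNNA1 0.022 and CTNNB1 0.0013, against negative values with TMM. The interaction became -0.080 for CDH1, -0.21 for CDH3 and -0.11 for CTNNB1. Totals called 3021 genes with siPRMT1 in ethanol (5806 with TMM), 2429 in R5020 (4559) and 3 in the interaction (14). They moved the median of all genes by 0.18, -0.17 and -0.14 for siPRMT1 in ethanol, R5020 in siPRMT1 cells and the interaction. The split of calls with totals was 897 higher and 1167 lower for R5020 in siPRMT1 cells (1648 and 1077 with TMM), 744 and 1685 for siPRMT1 in R5020 (2046 and 2513) and 1 and 2 for the interaction (8 and 6).

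Without a filter CTNND1 with R5020 in siPRMT1 cells was 0.54 and not called, the interaction called 29 genes, and that of CDH3 was -0.0033. In fits on the compared groups alone R5020 called 898 genes in siCT cells (637 higher and 261 lower, against 1345 and 963) and 7813 in siPRMT1 cells (2725 in all libraries), and siPRMT1 called 3324 in ethanol. There CDH1 was -0.21, CDH3 -0.39 and CTNNA1 0.32 with R5020 in siPRMT1 cells, all called, and CTNNA1 was -0.0043 with siPRMT1 in R5020. Without the pair that stands apart, calls numbered 5225 for R5020 in siPRMT1 cells, 3569 for R5020 in siCT cells, 6991 for siPRMT1 in R5020 and 140 for the interaction. R5020 then gave CDH1 -0.21, CDH3 -0.39 and CTNNA1 0.32 in siPRMT1 cells and CTNND1 0.40 in siCT cells. siPRMT1 gave CDH1 0.44 and CTNNA1 -0.25 in ethanol and CDH1 0.35, CTNND1 0.28 and CTNNA1 -0.075 in R5020, and the interaction was -0.084 for CDH1 and -0.18 for CDH3. DESeq2 called CTNND1 at 0.32 with R5020 in siCT cells and 0.30 with siPRMT1 in R5020, and 88 genes in the interaction. limma with quality weights called 8179 genes for R5020 in siPRMT1 cells, 9866 for siPRMT1 in R5020 and 65 for the interaction. It gave CDH1 -0.22, CDH3 -0.40 and CTNNA1 0.33 with R5020 in siPRMT1 cells, CDH1 0.24 with siPRMT1 in ethanol, and CDH1 0.29, CTNNA1 -0.067, CTNNB1 -0.19 and CTNND1 0.26 with siPRMT1 in R5020, with an interaction of -0.051 for CDH3.

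With the replicate block CTNND1 with R5020 in siPRMT1 cells was 0.54 with an edgeR adjusted p of 0.0517, the interaction called 0 genes (14 without the block) and that of CDH3 was -0.021. The numbers do not pair the libraries: 2 of 12 libraries correlated best with their own number.

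Leaving out 1 library at a time, R5020 called 1831 to 3820 genes in siPRMT1 cells and 1550 to 3029 in siCT cells, siPRMT1 called 3487 to 7827 in ethanol and 2332 to 6768 in R5020, and the interaction called 0 to 32. CTNND1 was 0.50 to 0.56 with R5020 in siPRMT1 cells and 0.29 to 0.40 in siCT cells. With R5020 in siCT cells CDH1 ran from -0.60 to 0.16 and CDH3 from -0.69 to 0.12. CDH1 ran from -0.29 to 0.49 with siPRMT1 in ethanol and from -0.019 to 0.34 in R5020, and CTNNA1 from -0.086 to 0.071 in R5020. The interaction ran from -0.40 to 0.40 for CDH1, -0.54 to 0.31 for CDH3 and -0.030 to 0.090 for CTNNB1. The log2 ratio of CDH3 to CDH1 ran from -0.14 to 0.048 with R5020 in siCT cells. That of CTNNB1 to both cadherins ran from -0.25 to 0.50 with R5020 in siCT cells and from -0.59 to 0.17 with siPRMT1 in ethanol.

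Of the 83 calls named for the lists, 44 held in every fit, 60 in all 12 fits that left out 1 library and 51 under all other settings. Depth did not limit the members, whose lowest count was 549, while 3 libraries a group and the spread of the siCT groups did: the intervals of CDH1 and CDH3 spanned more than 1 log2 unit.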
